A study of Mus musculus with 4 samples.

Results

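The serpins are a superfamily of genes for protease inhibitors and their relatives, and here they were taken as all genes whose mouse symbol begins with Serpin. Of the 20296 genes in the authors' deposited table, 25 were serpins. The annotation holds 68 serpin symbols, and the other 43 were not analysed here. The clade is the letter that follows Serpin in the symbol. The genes came from clade b (11 genes), clade a (5), clade e (2), clade f (2), clade h (1) and others (4, from clades c, d, g and i).

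The study compared EpiLSC, epiblast-like stem cells, with nESC, naive embryonic stem cells, by RNA sequencing of ribosome-depleted total RNA. EpiLSC were collected on day 3 after nESC had been moved to N2B27 medium with activin A at 20 ng/ml and bFGF at 12 ng/ml. The nESC were kept in 2i/LIF. Each state had 2 libraries, 1 from the mouse embryonic stem cell line R1 and 1 from the line E14 (E14TG2a), with no transgene or mutation named. The medium and the state changed together and cannot be told apart. Nothing in the labels names a second culture of a line in either state, so the p-values rest on 4 libraries whose spread includes the difference between the lines. In such bulk samples, fewer cells of a type and less RNA per cell cannot be told apart.

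A typical serpin offers a protease an exposed reactive centre loop as bait. Once the loop is cut, its hinge inserts into the body of the serpin and the protease is dragged along and trapped, so each inhibitor molecule works once. Clade b serpins stay mostly inside the cell and are known for restraining proteases of granules and lysosomes, whereas most others are secreted and act in blood clotting, fibrinolysis or tissue remodelling. Several members inhibit no protease and serve as hormone carriers, a collagen chaperone or secreted factors.

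The coding sequences of the reactive centre loop are shown for the clade b genes of chromosome 13 on which the results turn, because close relatives are less alike there than over the rest of the coding sequence. Each runs from the hinge to the codon before the serpin signature near the end of the protein, 60 to 75 bases, as located by translating the GENCODE M21 coding sequence, and capitals mark the 21 bases of the hinge.
Serpinb6b: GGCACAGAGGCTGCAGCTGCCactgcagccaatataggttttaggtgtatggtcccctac
Serpinb6c: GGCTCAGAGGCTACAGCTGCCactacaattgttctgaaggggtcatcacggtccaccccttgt
Serpinb6a: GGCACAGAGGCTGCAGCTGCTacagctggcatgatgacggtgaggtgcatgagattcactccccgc
Serpinb1b: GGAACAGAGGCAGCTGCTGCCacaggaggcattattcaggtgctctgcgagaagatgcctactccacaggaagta
Serpinb1a: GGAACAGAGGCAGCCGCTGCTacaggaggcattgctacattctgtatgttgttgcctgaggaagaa
Serpinb9b: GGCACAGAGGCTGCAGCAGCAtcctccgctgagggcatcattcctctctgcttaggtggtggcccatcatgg
Serpinb9: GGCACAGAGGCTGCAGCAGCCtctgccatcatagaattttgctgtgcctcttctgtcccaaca
The hinge of Serpinb6b differed from that of Serpinb6a at 1 of 21 bases and that of Serpinb6c at 3. Serpinb1b differed from Serpinb1a at 2 hinge bases, and Serpinb9b from Serpinb9 at 1. After the hinge, identity over the alignment, with gaps counted as differences, was 53.3% for Serpinb6b with Serpinb6a, 52.2% for Serpinb6c with Serpinb6a, 60% for Serpinb1b with Serpinb1a and 47.1% for Serpinb9b with Serpinb9. Over the whole coding sequence the same pairs shared 81.2%, 81.8%, 89.8% and 85.3% of bases. In every one of these 4 pairs the stretch that meets the protease was thus less alike than the coding sequence as a whole.

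The deposited fold changes were taken as EpiLSC over nESC, since the naive genes Zfp42, Klf4 and Esrrb had negative values and the epiblast genes Fgf5, Otx2 and Dnmt3b positive ones. In the authors' deposited table, all 4 epiblast-like markers were then higher in EpiLSC and all 6 naive markers lower. The genes that set the direction are among them, and only Pou3f1, Tfcp2l1, Nr5a2 and Tbx3 played no part in that choice. The table holds no column per library, but its means are sums of whole reads divided by 4 size factors, and the reads behind each serpin gene could be solved from them. Values below are normalized counts, which are reads divided by the library's size factor. They are given for the library with the larger size factor (1.24 in EpiLSC, 1.28 in nESC) and then for the library with the smaller one (0.735 in EpiLSC, 0.876 in nESC). Which library came from which line is not known.

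Of the 25 serpin genes, 18 had enough reads for an adjusted p in the authors' deposited table. Of these 18, 1 rose in EpiLSC and 7 fell at an adjusted p under 0.05 (DESeq2's Wald test, Benjamini-Hochberg adjusted over 16361 genes). Among all 16361 tested genes 13.9% were called, 7.67% as higher in EpiLSC and 6.23% as lower. The genes were chosen with these results known, so the counts describe the family and are not a test of it. The median log2 fold change was -1.58 over the 18 tested serpins in the authors' deposited table, against 0.02 over all tested genes. The libraries of the states did not overlap for 14 of the 18, 4 higher and 10 lower in EpiLSC. For comparison, the libraries did not overlap for 52.7% of the 11412 tested genes with means under 1000 (28% higher, 24.7% lower).

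**Figure D1:**
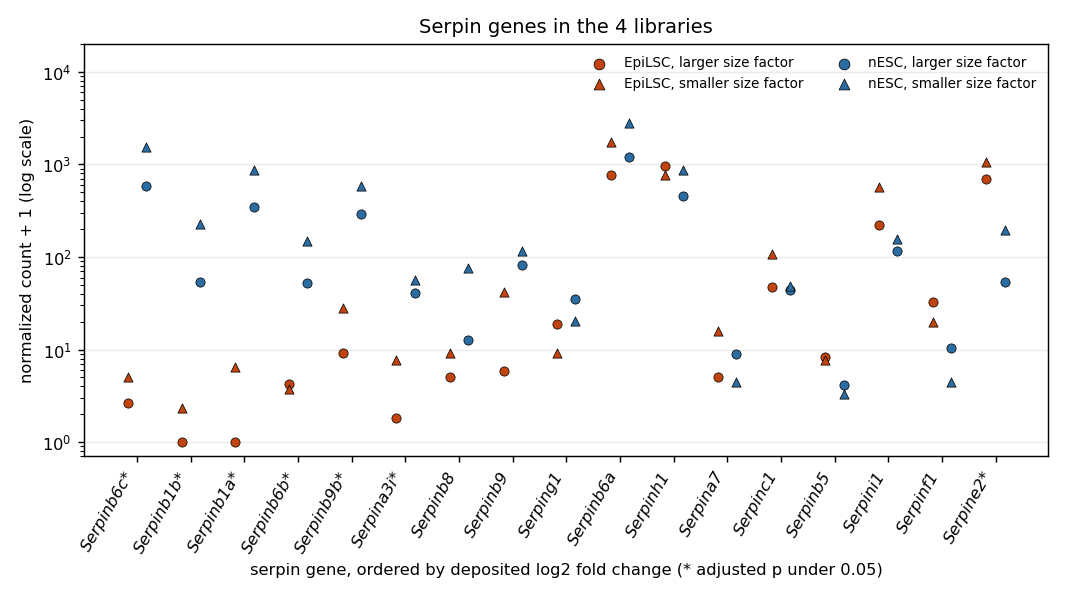
Normalized counts plus 1 on a log scale for 17 tested serpin genes, ordered by deposited log2 fold change, with 1 point for each of the 2 EpiLSC libraries (orange) and the 2 nESC libraries (blue). The 6 genes marked as fallen have both EpiLSC points below both nESC points, Serpine2 has both above, and Serpinb6a and Serpinh1 overlap.

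Clade b held 5 of the 7 serpins that fell: Serpinb6c, Serpinb1a, Serpinb1b, Serpinb6b and Serpinb9b. All 5 lie on chromosome 13, and 4 of them were nearly silent in EpiLSC, with 1 to 6 reads over both libraries. Serpinb6c, a close relative of Serpinb6a, had 1.62 and 4.08 normalized counts in EpiLSC, against 582 and 1557 in nESC. It had 5 reads in EpiLSC and 2107 in nESC, and its pooled nESC over EpiLSC ratio was 386 (95% counting interval 165 to 1191). Pooled ratios here add the reads of both libraries of a state and divide by their summed size factors. They therefore differ from ratios of the mean normalized counts. The authors' deposited table gives -8.65 on the log2 scale (SE 1.01, adjusted p = 3.32e-15).

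Serpinb1a, the mouse counterpart of the human inhibitor of neutrophil elastase, had 0 and 5.44 normalized counts in EpiLSC, against 346 and 867 in nESC. These values come from 4 reads in EpiLSC and 1202 in nESC, a pooled ratio of nESC over EpiLSC of 276 (95% counting interval 107 to 1013). Both nESC libraries held it at a level that neither EpiLSC library approached. Its log2 fold change in the authors' deposited table was -8.02 (SE 1.13, adjusted p = 1.18e-10).

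Serpinb1b, a paralog of Serpinb1a, had 0 and 1.36 normalized counts in EpiLSC, against 53.3 and 227 in nESC. A single read in EpiLSC stood against 267 in nESC, so the pooled ratio of nESC over EpiLSC, 245, is loosely bounded (95% counting interval 43.6 to 9706). From the authors' deposited table the log2 fold change was -8.04 (SE 1.67, adjusted p = 3.72e-05). Such counting intervals cover counting error only, and the fitted fold of a gene with so few reads depends on the model.

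Serpinb6b, another relative of Serpinb6a, had 3.23 and 2.72 normalized counts in EpiLSC, against 50.9 and 149.5 in nESC. The log2 fold change in the authors' deposited table was -5.06 (SE 1.10, adjusted p = 9.84e-05). Serpinb9b, a paralog of the granzyme B inhibitor Serpinb9, had 8.08 and 27.2 normalized counts in EpiLSC, against 292 and 590 in nESC. Its fall was -4.68 on the log2 scale in the authors' deposited table (SE 0.85, adjusted p = 1.55e-06). Serpinb9b kept more reads in EpiLSC than the other 4, 30 over both libraries, and its states were still widely separated.

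The other clade b genes gave no call. Serpinb6a, whose human counterpart inhibits cathepsin G, was the most abundant serpin by mean. It had 762 and 1733 normalized counts in EpiLSC, against 1187 and 2809 in nESC. The states overlapped, because the second EpiLSC library exceeded the first nESC library, and the authors' deposited table gives -0.68 on the log2 scale (SE 0.76, adjusted p = 0.794). The 95% interval of that change, -2.17 to 0.82 from the fold change and SE in the authors' deposited table, leaves room for a change of either sign.

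Serpinb9, the granzyme B inhibitor, had 4.85 and 40.8 normalized counts in EpiLSC, against 80.7 and 114 in nESC. Serpinb8, whose human counterpart inhibits furin in vitro, had 4.04 and 8.16 in EpiLSC, against 11.8 and 74.2 in nESC. For both genes the EpiLSC libraries lay below the nESC libraries without passing the threshold. The authors' deposited table gives Serpinb9 a value of -2.12 on the log2 scale (SE 1.05, adjusted p = 0.211). It gives Serpinb8 one of -2.84 (SE 1.26, adjusted p = 0.133, from the authors' deposited table). Serpinb5, the non-inhibitory maspin of epithelia, was the only clade b gene with a positive value, 1.37 (SE 1.83, adjusted p = 0.856), from the authors' deposited table, with 7.27 and 6.80 normalized counts in EpiLSC, against 3.13 and 2.28 in nESC.

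Across the clade, 10 of 11 genes had a negative log2 fold change in the authors' deposited table, 5 of the 9 tested fell and 0 rose. The 10 include Serpinb1c and Serpinb6e, which were not tested and had too few reads for a direction. At an unadjusted p under 0.05, DESeq2's Wald test gave 7 of the 9 as lower and 0 as higher, against 9.68% and 12.1% of all 16361 tested genes. The median over these 9 genes was -4.68 in the authors' deposited table.

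**Figure D2:**
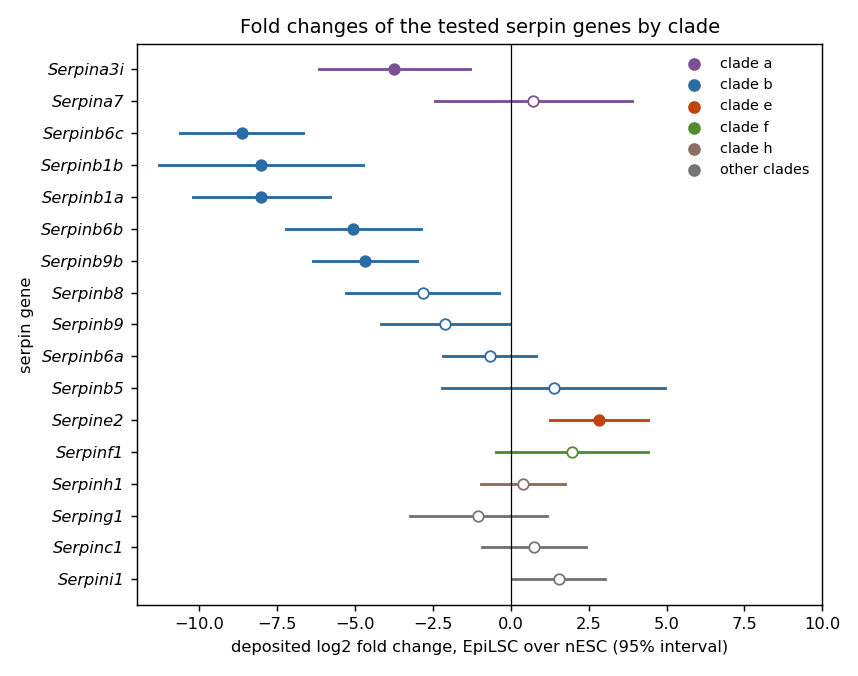
Log2 fold change of EpiLSC over nESC with its 95% interval, from the authors' deposited table, for 17 tested serpin genes grouped and coloured by clade; filled points have an adjusted p under 0.05. The 5 filled points of clade b lie between -8.65 and -4.68, and Serpine2 is the filled point above 0.

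Of clade e, Serpine2 alone is described here, and its values do not stand for the clade. Serpine2, protease nexin-1, a secreted inhibitor of thrombin and urokinase, had 698 and 1053 normalized counts in EpiLSC, against 53.3 and 195 in nESC. Both EpiLSC libraries lay well above both nESC libraries. It was the only serpin that rose, by 2.82 on the log2 scale in the authors' deposited table (SE 0.81, adjusted p = 0.0053). The change did not pass a test against a fold of 2 (adjusted p = 0.236, computed from the authors' deposited table), within a range of 0.00538 to 0.236 over the alternatives.

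In clade a, the plasma serpins, 1 of 2 tested genes was called. Serpina3i, one of the many mouse relatives of human antichymotrypsin, had 0.808 and 6.80 normalized counts in EpiLSC, against 39.97 and 54.8 in nESC. It fell by 3.74 on the log2 scale in the authors' deposited table (SE 1.24, adjusted p = 0.0223). Against a fold of 2 its adjusted p was 0.260, computed from the authors' deposited table, within a range of 0.0222 to 0.260 over the alternatives. Serpina7, thyroxine-binding globulin, had 4.04 and 14.96 normalized counts in EpiLSC, against 7.84 and 3.42 in nESC, and the states overlapped. Its log2 fold change was 0.72 (SE 1.61, adjusted p = 0.945), from the authors' deposited table.

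The remaining clades gave no call. Serpini1, neuroserpin, an inhibitor of tissue plasminogen activator in neurons, had 218 and 565 normalized counts in EpiLSC, against 114 and 155 in nESC. Both EpiLSC libraries were above both nESC libraries, and the authors' deposited table gives 1.54 on the log2 scale (SE 0.76, adjusted p = 0.206). Serpinh1, the collagen chaperone HSP47, had 960 and 767 normalized counts in EpiLSC, against 452 and 865 in nESC. The states overlapped, and the change was 0.39 on the log2 scale in the authors' deposited table (SE 0.68, adjusted p = 0.915).

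Serpinf1, the non-inhibitory pigment epithelium-derived factor, had 31.5 and 19.0 normalized counts in EpiLSC, against 9.40 and 3.42 in nESC. The authors' deposited table gives it 1.96 on the log2 scale (SE 1.24, adjusted p = 0.408), although the libraries did not overlap. Serpinc1, antithrombin, had 46.0 and 107 normalized counts in EpiLSC, against 43.1 and 47.9 in nESC, and these overlapped. Serping1, the inhibitor of complement C1, had 17.8 and 8.16 in EpiLSC, against 34.5 and 19.4 in nESC, which did not overlap. Neither passed, with log2 fold changes in the authors' deposited table of 0.75 (SE 0.85, adjusted p = 0.801) for Serpinc1 and -1.04 (SE 1.13, adjusted p = 0.776) for Serping1.

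The 7 serpins without an adjusted p were Serpina12 (vaspin), Serpina1d, Serpina3g, Serpinb1c, Serpinb6e, Serpind1 (heparin cofactor II) and Serpinf2 (alpha-2-antiplasmin). They had 2 to 8 reads over all 4 libraries, too few to place either state above the other. Serpinb6e and Serpina3g had 0 reads in both EpiLSC libraries, against 4 and 6 in nESC. The tested serpins had 20 reads or more.

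To compare levels between genes, normalized counts were divided by the length of the gene's merged exons in kb. The orders depend on that length, which merges all annotated transcripts: 1391 bases for Serpinb6c, 5409 for Serpinb6a and 8287 for Serpine2. By normalized count alone, Serpinb6a (1187 and 2809) exceeded Serpinb6c (582 and 1557) in the nESC libraries. In EpiLSC the highest serpins were Serpinh1 (354 normalized counts per kb, mean of both libraries), Serpinb6a (231 per kb), Serpine2 (106 per kb) and Serpini1 (53.7 per kb). In nESC they were Serpinb6c (769 per kb), Serpinb6a (369 per kb), Serpinh1 (270 per kb), Serpinb1a (264 per kb) and Serpinb9b (132 per kb). The 2 libraries of a state differed by more than some neighbours in these orders did. Serpinb6a ranged from 141 to 320 per kb and Serpinh1 from 314 to 393 per kb in EpiLSC, so these neighbours overlap there. In nESC, Serpinh1 (185 to 354 per kb), Serpinb1a (150 to 377 per kb) and Serpinb6a (220 to 519 per kb) overlap one another as well, and Serpinb6c (419 to 1119 per kb) overlaps Serpinb6a.

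Summed per kb over all 25 serpins, the level was 692 and 917 in EpiLSC, against 1256 and 2924 in nESC. The 5 clade b genes that fell made up 0.723% and 1.67% of that sum in EpiLSC, against 56.2% and 63.5% in nESC. They were chosen for having fallen, so this share describes the make-up of the serpin pool and tests nothing. The share also depends on the merged exon lengths.

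**Figure D3:**
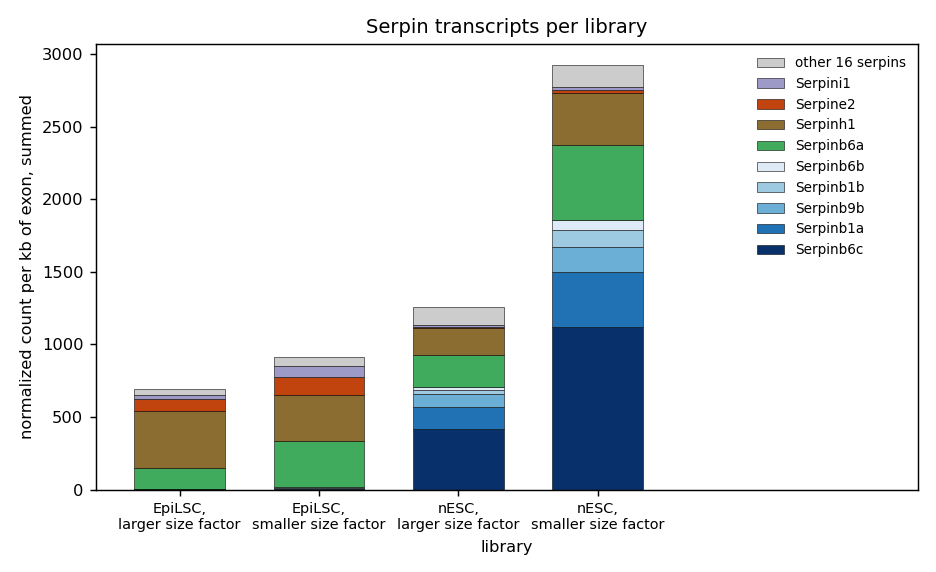
Stacked normalized counts per kb of merged exon for the serpin genes in the 2 EpiLSC libraries and the 2 nESC libraries. Serpinh1, Serpinb6a and Serpine2 fill most of the EpiLSC columns, and Serpinb6c is the largest single block in each nESC column.

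All 9 clade b serpins of the table on chromosome 13 lie in 1 cluster, in which the annotation places 16 serpin symbols. Each of the 9 had a negative log2 fold change in the authors' deposited table, and 5 of the 7 tested fell. The 3 other genes of the table that start within the cluster were not called: Nqo2, an oxidoreductase gene, had 0.17 (SE 0.71), Ripk1, a kinase of cell death signalling, had -0.82 (SE 0.69) and the antisense transcript 1110046J04Rik had 1.75 (SE 1.15), as log2 fold changes in the authors' deposited table. All 3 overlap Serpinb6a on the opposite strand. The libraries were strand-specific, but the strand setting of the counting is not given, so Serpinb6a reads could include theirs.

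Among the 10 nearest tested genes outside the cluster, 5 on each side, 2 were called in the authors' deposited table, in opposite directions. Foxc1, a forkhead transcription factor, rose by 4.12 on the log2 scale (SE 1.51, adjusted p = 0.0468, from the authors' deposited table). Tubb2b, a beta-tubulin, fell by 2.42 (log2; SE 0.72, adjusted p = 0.00787, from the authors' deposited table). The serpins of other chromosomes did not show 1 direction: chromosome 1 held 4 tested serpins, of which 1 rose and 0 fell at the adjusted threshold of DESeq2's Wald test, and chromosome 12 held 1, which fell.

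**Figure D4:**
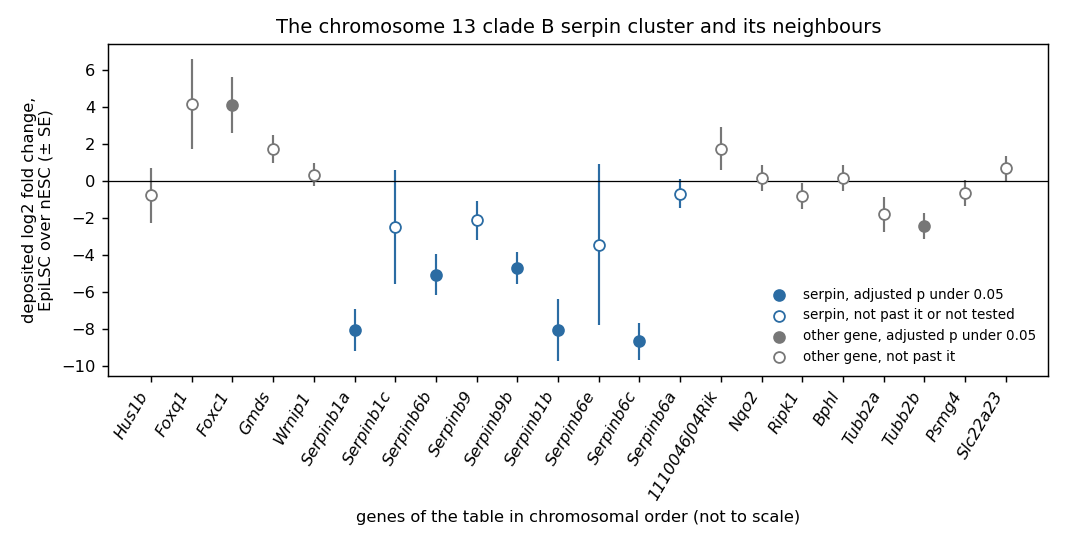
Log2 fold change of EpiLSC over nESC with its standard error, from the authors' deposited table, for the serpin cluster on chromosome 13 and its nearest tested neighbours, in gene order. The points of the 9 serpins lie below 0, those of the untested Serpinb1c and Serpinb6e with wide errors, whereas the neighbours range from -2.42 to 4.15.

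In the nESC state the 2 libraries were unequal for these genes. The library with the smaller size factor held 2.67 times the normalized count of the other for Serpinb6c, 2.50 times for Serpinb1a, 4.26 times for Serpinb1b, 2.94 times for Serpinb6b, 2.02 times for Serpinb9b and 2.37 times for Serpinb6a. This ratio was also taken over 7646 tested genes with means under 1000 and at least 50 reads in that state. Its median was 0.879, and it ran from 0.183 to 2.63 between the 5th and 95th percentiles. Serpinb6a, with a mean of 1623, lies outside that set. Serpinb9, in the same cluster, had a ratio of 1.41. Tested serpins of other chromosomes ranged from 0.364 for Serpinf1 to 6.31 for Serpinb8, with 3.66 for Serpine2. Unequal nESC libraries were therefore not particular to the cluster. In EpiLSC, Serpinb6a had a ratio of 2.27. The median over 7943 genes chosen in the same way was 0.738, with 0.0853 to 2.70 between the 5th and 95th percentiles. Whether the unequal libraries reflect the lines was not tested, since no library can be tied to a line.

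Close paralogs can share reads. Over windows of 50 bases of the annotated transcripts, 9.92% of Serpinb6c was found word for word in another gene, 2.92% of Serpinb6b, 2.81% of Serpinb1a, 3.09% of Serpinb1b and 0.478% of Serpinb9b. The share was 15.9% for Serpina3i and 50.9% for Serpina1d, so their values are the least certain. Serpinb6b and Serpinb6c share 86.5% of coding bases with each other. How reads that match several genes were handled is not given in the sources used here.

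Promoter windows of 250 bases before the start of the gene are shown for clade b genes of chromosome 13 on which the results turn. Chosen were genes whose window holds no annotated exon of the gene itself, 2 that fell and 2 that were not called, Serpinb6a and Serpinb9. Exons of other genes were not looked for, and Ripk1, which overlaps Serpinb6a on the opposite strand, could share the Serpinb6a window. The windows are RefSeq sequence of GRCm38.p6 on the gene's strand, with CG dinucleotides in capitals. The Serpinb6c window is chr13:33905192-33905441 (minus strand), the Serpinb9b window is chr13:33027164-33027413 (plus strand), the Serpinb6a window is chr13:34002795-34003044 (minus strand) and the Serpinb9 window is chr13:33004291-33004540 (plus strand).
Serpinb6c: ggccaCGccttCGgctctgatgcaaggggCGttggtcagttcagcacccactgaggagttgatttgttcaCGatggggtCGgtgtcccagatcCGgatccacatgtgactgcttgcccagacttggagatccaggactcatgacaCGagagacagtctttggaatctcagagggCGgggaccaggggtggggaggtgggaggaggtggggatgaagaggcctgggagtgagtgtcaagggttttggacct
Serpinb9b: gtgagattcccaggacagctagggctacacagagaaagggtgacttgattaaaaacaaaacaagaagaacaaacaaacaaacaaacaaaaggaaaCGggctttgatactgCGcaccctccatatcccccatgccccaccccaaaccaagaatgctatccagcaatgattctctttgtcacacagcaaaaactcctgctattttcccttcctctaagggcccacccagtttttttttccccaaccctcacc
Serpinb6a: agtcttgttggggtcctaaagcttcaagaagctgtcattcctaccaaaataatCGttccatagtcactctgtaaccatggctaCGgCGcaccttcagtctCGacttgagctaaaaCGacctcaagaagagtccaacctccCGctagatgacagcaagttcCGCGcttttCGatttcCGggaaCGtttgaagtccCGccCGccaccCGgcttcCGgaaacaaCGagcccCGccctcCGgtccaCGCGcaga
Serpinb9: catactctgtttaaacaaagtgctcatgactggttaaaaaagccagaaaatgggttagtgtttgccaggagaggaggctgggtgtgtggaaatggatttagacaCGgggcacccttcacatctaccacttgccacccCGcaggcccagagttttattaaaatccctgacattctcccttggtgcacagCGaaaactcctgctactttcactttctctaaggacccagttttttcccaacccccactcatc
Serpinb6c held 8 CG dinucleotides and Serpinb9b held 2, against 20 for this Serpinb6a window and 3 for Serpinb9. Relative to the number their base composition gives, these were 0.405, 0.171, 1.13 and 0.216. The other start of Serpinb6a, whose window holds 115 annotated exon bases, had 2 CG dinucleotides and a ratio of 0.143. The median of that ratio was 0.684 over 15390 promoters of tested genes and 0.374 over 32851 promoters in all. Of the other serpins that fell, Serpinb6b had 0.207 (52 exon bases in the window) and Serpinb1b 0.183 (160 exon bases), and the Serpina3i window held 0 CG dinucleotides. Serpins of the cluster that were not tested were as poor in CG, with 0 in the Serpinb6e window and ratios of 0.141 and 0 in the 2 windows of Serpinb1c. Low CG was therefore not particular to the genes that fell. Serpine2, which rose, held 34, a ratio of 0.912 (31 exon bases). These are sequence features of single windows, and no methylation was measured.

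Short motifs were searched on both strands in the 25 windows available for 22 of the serpin genes. TATAAA stood in 3 windows (12.4% of all 32851 promoters and 6.67% of the 15390 of tested genes), CCAATC in 5 (14.6% and 18.6%) and GGGGCGG in 3 (20.97% and 36.5%). Both Serpina7 windows overlap and hold the same TATAAA, so the 3 windows are not 3 separate sites. TTCNNNGAA stood in 3 windows (7.02% and 5.72%) and TGANTCA in 3 (6.75% and 4.52%). AAGGTCA stood in 0 of the 25 windows (4.08% and 3.01%), as did ATTTGCAT (1.601% and 1.36%). The windows of Serpinb6c, Serpinb9b and Serpinb9 held none of these 7 motifs, and a match or its absence is a description of these letters alone.

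The proteases that serpins act on, and the partners of the non-inhibitory members, were examined as lists in the authors' deposited table. For this and the lists below, the shares over all 16361 tested genes were 7.67% called as higher in EpiLSC and 6.23% as lower. At an unadjusted p under 0.05 by DESeq2's Wald test they were 12.1% and 9.68%. The lists are short, and their counts are descriptions. In plasminogen activation, a system on which Serpine2 acts, 2 of 10 tested genes rose and 0 fell. By the unadjusted p of DESeq2's Wald test, 2 were higher and 1 lower. The 2 that rose are endocytic receptors that clear serpin-protease complexes, Lrp2 by 4.03 on the log2 scale (SE 0.67, adjusted p = 1.18e-07) and Vldlr by 2.39 (SE 0.62, adjusted p = 0.00174), from the authors' deposited table. Lrp1 and Sorl1, also receptors of this list, were not called, so such receptors did not rise as a class. The median over the 10 genes was 0.71 in the authors' deposited table, and neither plasminogen activator was called.

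Among coagulation proteases and thrombin receptors, 1 of 11 tested genes rose and 2 fell, with a median of 0.18 in the authors' deposited table. F5, a cofactor of thrombin formation, rose by 5.52 on the log2 scale (SE 1.06, adjusted p = 5.88e-06, from the authors' deposited table). Tfpi, the tissue factor pathway inhibitor, fell by 2.68 (log2; SE 0.77, adjusted p = 0.00576) and F2, prothrombin, which Serpine2 and Serpinc1 inhibit once activated, fell by 4.26 (log2; SE 1.34, adjusted p = 0.0138), from the authors' deposited table.

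A list of membrane-anchored serine proteases, kallikreins and HtrA genes also held other Prss genes, Furin and further proprotein convertases. All are called membrane-anchored protease genes below, although Prss23, Prss35 and Pcsk6 are among the additions. Of these genes, 3 of 20 tested rose and 2 fell, with a median of -0.17 in the authors' deposited table. Prss23 rose by 6.55 on the log2 scale, Hpn (hepsin) by 3.77 and Tmprss2 by 3.70 in the authors' deposited table (SE 1.39, 1.09 and 1.27; adjusted p = 5.44e-05, 0.00621 and 0.029). Prss35 had -7.05 and Pcsk6, a proprotein convertase, -3.32 in the authors' deposited table (SE 0.83 and 0.88; adjusted p = 8.43e-15 and 0.00202).

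The list of cathepsins, granzymes and caspases, proteases of the kind that clade b serpins restrain, also holds Mpo and Prf1, which are not proteases. It had 12 tested genes of 29, of which 0 rose and 2 fell. At an unadjusted p under 0.05 the counts by DESeq2's Wald test were also 0 and 2, and the median was -0.98 in the authors' deposited table. Both that fell are lysosomal proteases, Ctsa with -2.48 (SE 0.65, adjusted p = 0.00192) and Ctsb with -1.95 (SE 0.63, adjusted p = 0.0178), from the authors' deposited table.

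Among the genes listed as collagen folding partners of Serpinh1, 2 of 23 tested rose and 3 fell, with a median of -0.48 in the authors' deposited table. The list is wider than folding enzymes and chaperones and also holds Kdelr1, Kdelr2, Kdelr3, Mia3 and Tmem38b. All are called collagen folding genes below. P3h2, a collagen prolyl 3-hydroxylase, had 6.76 (SE 1.33, adjusted p = 1.14e-05) and Fkbp10, a collagen chaperone, 3.06 (SE 0.94, adjusted p = 0.012) on the log2 scale in the authors' deposited table. Crtap and P3h1, which form a prolyl 3-hydroxylation complex, had -2.24 (SE 0.64, adjusted p = 0.00547) and -2.51 (SE 0.74, adjusted p = 0.00756), and Fkbp14 had -3.00 (SE 0.87, adjusted p = 0.00648), from the authors' deposited table. The other 18 tested genes of the list gave no call, nor did Serpinh1 itself.

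Other protease inhibitors were listed by symbols that do not begin with Serpin. The list also holds Agt (angiotensinogen), a serpin under another name. Of these genes, 1 of 22 tested rose and 5 fell, with a median of -0.34 in the authors' deposited table. Itih5, an inter-alpha-trypsin inhibitor heavy chain, rose by 3.19 (log2; SE 0.86, adjusted p = 0.0026, from the authors' deposited table). Fetub (fetuin-B) had -4.58, A2m (alpha-2-macroglobulin) -4.05 and Pzp, a relative of A2m, -5.01 on the log2 scale in the authors' deposited table (SE 0.70, 0.77 and 1.30; adjusted p = 3.89e-09, 5.00e-06 and 0.00155).

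Markers of other cell types that express serpins were read beside these values, as sums of the levels that the mean and fold change of the authors' deposited table imply for each state. Of all 16361 tested genes, 7.67% were called as higher in EpiLSC and 6.23% as lower. At an unadjusted p under 0.05 by DESeq2's Wald test the shares were 12.1% and 9.68%. Fibroblast and feeder cell markers rose for 4 of 8 tested genes and fell for 0 (6 higher and 0 lower at an unadjusted p under 0.05 by DESeq2's Wald test), and their 11 genes summed to 1032 normalized counts in EpiLSC and 179 in nESC. The 4 that rose were Fbn1 (548 in EpiLSC and 77.9 in nESC), Mmp2 (205 and 12.4), Thy1 (141 and 5.83) and Dcn (52.6 and 0.485). The fibroblast collagen Col1a1, which was not called, stood at 9.04 in EpiLSC and 3.09 in nESC. These levels are implied by the authors' deposited table. Serpine2 was higher in the same state, and the part of these markers in that was not tested. Parietal and primitive endoderm markers rose for 5 of 11 and fell for 1, summing to 10979 in EpiLSC and 21667 in nESC. DESeq2's Wald test gave 5 as higher and 3 as lower at an unadjusted p under 0.05. Lama1, which fell, made up 136 and 6511 of that sum and Lamc1, which was not called, 3579 and 11109. Both went against the direction of the 5 that rose, of which Lamb1 made up 4700 and 903. Visceral endoderm and liver markers, of which Afp and Ttr were among those not analysed here, summed to 168 in EpiLSC and 115 in nESC, with 1 of 7 tested fallen and 0 risen, against 1 lower and 1 higher at an unadjusted p under 0.05 by DESeq2's Wald test. Immune cell markers, of cells known for Serpinb1a and Serpinb9, summed to 173 in EpiLSC and 270 in nESC, of which Cd68 made up 144 and 224, with 0 of 4 called by DESeq2's Wald test and 1 lower at an unadjusted p under 0.05. Keratinocyte and surface ectoderm markers summed to 1643 in EpiLSC and 170 in nESC, of which Sfn made up 1565 and 102, with 0 of 4 called by the same test and 0 at an unadjusted p under 0.05. Trophoblast markers summed to 1950 in EpiLSC and 982 in nESC, of which Eomes made up 1917 and 212, with 1 of 4 tested risen (Eomes) and 2 fallen (Tfap2c and Cdx2). The part of these cell types in the serpin values was not tested.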

How the data were processed

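Ribosome-depleted, strand-specific libraries of 4 samples were compared, 2 EpiLSC and 2 nESC, grouped by their titles. Per the submitters' processing notes, the authors used TopHat2, HTSeq and DESeq2 1.8.2 with the build mm9. Neither the gene annotation, nor whether HTSeq counted by strand, nor the total reads per library is given in the sources used here. The 1 deposited table has no column per sample. Its mean of normalized counts, in unit a signal, was made by the authors from counts scaled with size factors. The deposited log2 fold change and its standard error come from the authors' DESeq2 model, per the file headers. The authors' Wald score is the ratio of fold change to standard error, and the deposited adjusted p follows from the deposited p-value (both checked on the values). The step from the score to the p-value was not checked. In all, 3935 genes with means up to 3.74 have no adjusted p.

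Gene names came from GENCODE M21, which named 20167 of 20296 IDs. The serpin genes and all lists were chosen with earlier results of these data known. Called serpins, every uncalled one with a mean of 100 or more and up to 3 called genes per list and direction with the smallest p were named. The other serpins were also named, except 1 that stays in the counts and sums and is not reported here. Calls use the authors' adjusted p under 0.05. Levels implied by the mean and fold change served for list and marker sums. Alternatives were a test against a fold of 2, an adjusted p under 0.01, no filter, means of 100 or more and centring on abundant genes.

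The reads of each library were solved from the digits of the deposited means with the 4 size factors, a step added after seeing the data. Each library was placed on the side of the contrast that the fold changes of low genes gave it. Solved without the fold changes, all 1874 genes with means from 10 to 30 had exactly 1 solution, whose ratio had a median gap of 0.0144 (log2) to the deposited fold change and the deposited sign in 99.7% of genes. All 25 serpin genes had 1 solution, and for the 12 with at least 10 reads in each state the gap was at most 0.034. No test was made on these reads. The step was tested on simulated data. Promoter sequences and their coordinates are RefSeq, GRCm38.p6, a different build from the authors' mm9. Python 3.11.15, numpy 2.4.6, pandas 2.3.3, scipy 1.17.1 and matplotlib 3.10.9 were used. The planned comparison of serpin proteins was not run, and coding bases were used in its place.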

Additional observations from a re-analysis of the deposited data

How the results depend on the processing

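Of 58 counts recomputed under the alternatives, 41 stayed within 1.5 times the main count. Against a fold of 2, the serpins that rose were 0 and not 1. In the same test the plasminogen activation genes that rose were 1, the coagulation genes that fell 0, the membrane-anchored protease genes that rose 1 and fell 1, the cathepsin list's fallen genes 0, the collagen folding genes that rose 1 and fell 0, and the other inhibitors that rose 0 and fell 3. With means of 100 or more alone, where fewer genes are tested, the serpins that fell were 4, the coagulation genes that rose 0 and fell 1, the membrane-anchored protease genes that rose 0, the collagen folding genes that rose 1, and the other inhibitors that rose 0 and fell 3. Of 41 pairs of a named serpin and an alternative, 38 kept their direction and side of the threshold, 0 reversed, and 3 lost the call, all against a fold of 2, among them Serpina3i and Serpine2. For other changes the cause was not tested.

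No paired analysis was possible because no library can be tied to a line: the deposited table has no column per sample, and the solved reads carry no line. Neither a replicate block nor leaving out a replicate was run. Depth limits the low genes: tested serpins had standard errors from 0.68 to 1.83 (log2), and the smallest change called among all genes was 1.68 (log2).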
